A study of Mus musculus with 8 samples.

Results

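The genes described here are the interleukins and their receptors, taken as every gene whose platform symbol begins with Il and a digit. The rule found 101 probes for 72 genes among 23978 probes for 16593 named genes. These are 33 ligands, 34 receptor chains, 4 inhibitors that block or bind a ligand, and 1 enzyme that carries an interleukin name (Il4i1). Transcript levels were measured in cells of renin lineage (CoRL), sorted from the kidney cortex of Ren1cCre×Rs-ZsGreen-R mice, in which Cre driven by the renin gene turns on ZsGreen permanently in any cell that makes renin or once did. The 4 day 5 FSGS mice were injected into the peritoneum with a sheep antibody against glomeruli, a model of sudden podocyte loss. Each injection held 12 mg per 20 g of mouse, the second came 24 h after the first, and cells were taken on day 5 from the second. The 4 uninjured mice were age-matched, carried the same alleles and received no antibody. Because little RNA was recovered it was amplified, and 1 array was used per mouse, an Illumina MouseRef-8 BeadChip, which gives a bead intensity and a detection p-value for each probe.

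Interleukins are small secreted proteins through which blood cells, and many tissue cells, signal to each other. Most bind receptors of 2 or more chains, 1 that gives specificity and 1 that is shared with other interleukins. IL-1 family receptors signal through MyD88 and NF-kB, and most other interleukin receptors through JAK kinases and STAT factors. In the injured kidney IL-1 beta and IL-18 are known as products of the inflammasome in myeloid cells, whereas IL-10 restrains macrophages. Receptors such as Il10ra belong mostly to blood cells, while gp130 (Il6st) is made by nearly all cells.

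Levels are given as log2 of the bead intensity after background correction and quantile normalization, so that 1 unit is a doubling, and probes of a gene were averaged. A gene counts as detected on an array where a probe has a detection p under 0.01. Changes are day 5 FSGS minus uninjured, and a gene rose or fell where its adjusted p was at most 0.01 (limma, Benjamini-Hochberg over 16593 genes). By that rule 317 genes (1.91%) rose and 66 (0.398%) fell. Median scaling gave 719 and 38 genes, and scaling to the 75th percentile gave 579 and 446. The arrays detected 11153 to 11700 probes in day 5 FSGS CoRL and 5793 to 12052 in uninjured CoRL. Uninjured replicate 1 had the fewest, and its lowest detected level was 7.34, against 5.59 to 6.51 in the other uninjured mice and 5.67 to 5.79 in day 5 FSGS mice. Nothing in the labels says how the mice were grouped for sorting or scanning. The cells were sorted on ZsGreen, and Ren1 was not analysed here. Of 14 markers of renin cells, smooth muscle and pericytes, 2 (Acta2 and Rgs5) were detected on all 8 arrays and 5 on none (Tagln, Cnn1, Pdgfrb, Lmod1 and Gata5). None was called by limma (1 was higher and 2 were lower at an unadjusted p under 0.05), with differences from -0.97 for Mylk to 1.51 for Des (adjusted p = 0.049). Mylk and Cspg4 (-0.41) were lower in day 5 FSGS mice with no overlap, and the markers summed to 934 to 2107 in day 5 FSGS mice and 1319 to 1969 in uninjured mice.

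Many markers of macrophages and monocytes differed between the groups. Of 27 measured, 14 rose and all had higher means, and their summed signal (linear, normalized) was 20749 to 52392 in day 5 FSGS mice and 6494 to 10701 in uninjured mice. Of 21 markers of T, NK and innate lymphoid cells, 1 (Cd3g) rose, and 5 were higher at an adjusted p under 0.05 from limma. The 21 summed to 1768 to 2769 in day 5 FSGS mice and 1147 to 1700 in uninjured mice. Of them, 6 were detected on no array (Cd5, Ncr1, Gzmb, Gata3, Eomes and Tbx21). Neutrophil markers summed to 886 to 4123 in day 5 FSGS mice and 384 to 1634 in uninjured mice, and none of 12 was called by limma (2 were higher at an unadjusted p under 0.05, and 1 at an adjusted p under 0.05). Of 17 proximal tubule markers 2 fell and all had lower means, with a summed signal of 8860 to 39686 in day 5 FSGS mice and 44469 to 54480 in uninjured mice. The 13 endothelial markers summed to 1610 to 5212 in day 5 FSGS mice and 1341 to 2396 in uninjured mice, and the 10 dendritic cell markers summed to 901 to 1463 in day 5 FSGS mice and 736 to 809 in uninjured mice. Day 5 FSGS replicate 3 had the lowest sums of its group for macrophage (20749), T and NK cell (1768), B cell (323) and dendritic cell markers (901), and the highest for endothelial (5212), podocyte (2329) and proximal tubule markers (39686). All 8 mast cell and basophil markers measured were below detection on every array. In these bulk samples a change in the number of cells of a type and a change in RNA per cell cannot be told apart, and the part of such cells in the results was not tested.

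Sequence is shown for 5 of the 8 members that had an adjusted p under 0.05 from limma and groups that did not overlap. It covers the 250 bases upstream of the start site. These 5 had a single start in the promoter windows used (RefSeq, GRCm38.p6). Il10ra, Il10rb and Il16 also had such values but are not shown. The sequence runs 5′ to 3′ on the strand of the gene and ends at the base before the start. Capitals mark any of 5 motifs searched on both strands, namely GAGGAA (PU.1 and other ETS factors), the IRF motif (GAAA, any 2 bases, GAAA), the NF-kB motif (GGGA, any 2 bases, TTCC), TTGCNNAA (C/EBP factors) and TATAAA (the TATA box). None of the 5 contains another, and matches of TATAAA on opposite strands can overlap.
Il1b, chr2:129371140-129371389, minus strand: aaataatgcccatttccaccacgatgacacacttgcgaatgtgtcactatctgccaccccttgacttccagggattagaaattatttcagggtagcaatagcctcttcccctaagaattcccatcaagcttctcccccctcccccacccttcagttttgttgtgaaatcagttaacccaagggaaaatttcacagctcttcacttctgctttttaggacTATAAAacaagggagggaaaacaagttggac
Il18, chr9:50554450-50554699, plus strand: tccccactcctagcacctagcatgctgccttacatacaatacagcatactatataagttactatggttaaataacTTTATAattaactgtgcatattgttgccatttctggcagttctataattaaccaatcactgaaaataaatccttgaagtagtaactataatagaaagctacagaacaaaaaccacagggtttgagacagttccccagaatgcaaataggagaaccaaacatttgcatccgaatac
Il18rap, chr1:40515112-40515361, plus strand: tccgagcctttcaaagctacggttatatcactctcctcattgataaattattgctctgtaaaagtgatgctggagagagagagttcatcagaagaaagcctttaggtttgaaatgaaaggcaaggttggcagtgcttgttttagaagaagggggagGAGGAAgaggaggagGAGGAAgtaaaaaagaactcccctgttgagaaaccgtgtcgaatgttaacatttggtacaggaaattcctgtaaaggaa
Il21r, chr7:125603179-125603428, plus strand: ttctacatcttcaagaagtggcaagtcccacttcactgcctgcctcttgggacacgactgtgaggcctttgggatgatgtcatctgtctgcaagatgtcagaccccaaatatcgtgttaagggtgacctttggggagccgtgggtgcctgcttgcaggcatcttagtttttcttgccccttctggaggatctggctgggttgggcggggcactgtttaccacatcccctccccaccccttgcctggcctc
Il13, chr11:53634703-53634952, minus strand: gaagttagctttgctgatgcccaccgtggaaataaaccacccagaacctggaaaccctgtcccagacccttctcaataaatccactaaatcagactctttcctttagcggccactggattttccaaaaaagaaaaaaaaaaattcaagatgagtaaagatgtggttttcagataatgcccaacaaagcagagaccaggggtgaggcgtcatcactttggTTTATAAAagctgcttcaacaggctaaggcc
A TATAAA match lay 31 to 26 bases before the start of Il1b, and the Il13 window held a pair of overlapping matches between bases 31 and 24. The Il18rap window held 2 GAGGAA matches, the Il18 window 1 distant match to TATAAA, and the Il21r window no match to any of the 5. Over all 32851 windows of this length, 23.3% held GAGGAA, 12.4% TATAAA, 9.56% TTGCNNAA, 2.98% the IRF motif and 1.21% the NF-kB motif. Of the 68 windows of 55 members matched in the table, 17, 12, 12, 2 and 3 held these motifs in that order. Il10ra and Il10rb were not matched, and Il16 has 3 starts.

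Among the 72 genes, 1 rose, 0 fell and 71 did not pass limma at an adjusted p of at most 0.01. The gene that rose was Il10ra, 1.39% of the members beside 1.91% of all genes. At an adjusted p under 0.05, 8 members were higher (11.1%, beside 8.52% of all genes) and 1 was lower (1.39%, beside 5.81%). At an unadjusted p under 0.05 there were 17 higher (23.6%, beside 15.0% of all genes) and 6 lower (8.33%, beside 15.5%). The methods' Bayesian test called 11 higher and 1 lower, and an unequal-variance test for each gene called 0 and 0 after adjustment (13 and 4 before it). The median log2 change was 0.04 over the members and -0.03 over all genes, with 0.04 for ligands and 0.08 for receptors. Means were higher in day 5 FSGS CoRL for 58.3% of members and 44.7% of all genes. With 75th percentile scaling, which moved the median of all genes to -0.52, these shares were 29.2% and 22.2%, and with median scaling (median -0.18) 34.7% and 36.2%. The 4 day 5 FSGS values lay above all 4 uninjured values for 9 members (12.5%, beside 10.4% of all genes) and below them for 3 (4.17%, beside 9.61%).

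The receptor of IL-10 held the 1 call. Il10ra, the chain that binds IL-10, stood at 9.77, 10, 9.39 and 9.83 in day 5 FSGS replicates 1 to 4, against 7.39, 6.39, 7.97 and 7.30 in uninjured replicates 1 to 4. All day 5 FSGS values lay above all uninjured values, and of the 8 arrays only uninjured replicate 2 was below detection. Il10ra averaged 9.75 ± 0.26 in day 5 FSGS CoRL and 7.26 ± 0.65 in uninjured CoRL (SD, n = 4 mice each). It rose 5.60-fold, a log2 change of 2.48 (SE 0.31, 95% interval 1.78 to 3.19, adjusted p = 0.00560 from limma). The deposited intensities of its probe, before any correction, were 1284, 1392, 852 and 941 in day 5 FSGS mice and 336, 237, 334 and 285 in uninjured mice, on arrays whose median probe read 157 to 200.5 in day 5 FSGS mice and 167.2 to 234.5 in uninjured mice. Without background correction the log2 change was 1.72, and with the processed signal of the authors 1.70, each still called. The call was lost (adjusted p up to 0.0262) without day 5 FSGS replicate 1, 2 or 4 or uninjured replicate 1 or 4, while the log2 change stayed between 2.18 and 2.72 whichever mouse was left out. It was also lost with an unequal-variance test for each gene (adjusted p = 0.0877).

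**Figure D1:**
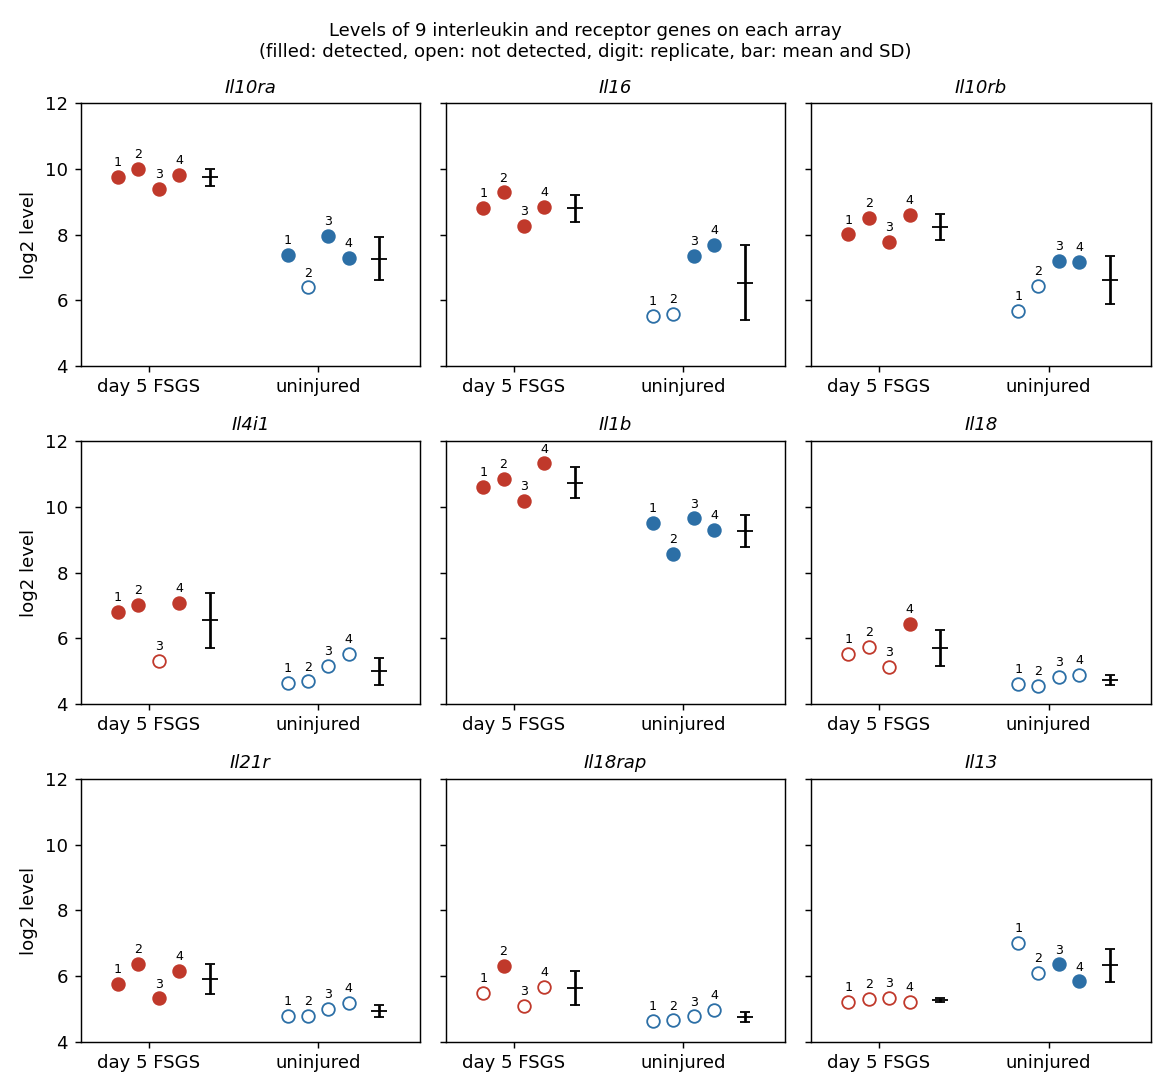
Log2 levels of the 9 members with an adjusted p under 0.05, by group (day 5 FSGS left, uninjured right), 1 point per mouse with its replicate number, filled where detected, and the mean and SD of 4 mice. Il10ra has 9.39 to 10 in day 5 FSGS mice and 6.39 to 7.97 in uninjured mice, and Il13 is the gene with the lower day 5 FSGS values.

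Il10rb, the second chain of the IL-10 receptor, which also serves IL-22 and the lambda interferons, had levels of 8.01, 8.51, 7.78 and 8.61 in day 5 FSGS mice, against 5.68, 6.43, 7.21 and 7.17 in uninjured mice. The groups did not overlap, and uninjured replicates 1 and 2 were below detection. The difference of 1.61 (SE 0.36, 95% interval 0.78 to 2.43, adjusted p = 0.0243) did not pass the threshold. It was 0.86 without background correction and 0.81 with the processed signal, and passed with 75th percentile scaling (adjusted p = 0.0040). IL-10 itself (Il10) was at 5.73, 5.68, 4.91 and 5.75 in day 5 FSGS mice and 5.85, 4.92, 4.93 and 4.88 in uninjured mice, detected only in day 5 FSGS replicates 1 and 4. The groups overlapped (difference 0.37, 95% interval -0.26 to 1.00, adjusted p = 0.417). The difference of Il10 was 0.56 without day 5 FSGS replicate 3 and 0.64 without uninjured replicate 1. Without both it was 0.84 (adjusted p = 0.0023 from limma). These mice held the lowest day 5 FSGS value and the highest uninjured value of Il10. Leaving them out was therefore bound to widen the difference, and no conclusion is drawn from it. The other ligands of the family, Il19, Il20, Il22 and Il24, were detected on no array. Of the receptors for them, Il22ra1 was below detection on every array, Il20rb was detected in uninjured replicate 1 alone and Il20ra in uninjured replicates 3 and 4. Il20ra stood at 4.89, 4.87, 4.86 and 4.83 in day 5 FSGS mice and 5.16, 5.02, 5.06 and 4.98 in uninjured mice, with no overlap but a difference of -0.19 (adjusted p = 0.151). Of its 3 probes, 1 carried the difference, at -0.59, and the others were at -0.05 and 0.05. Il22ra2, a soluble binder of IL-22, was also below detection on every array.

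Il1b, the inflammatory cytokine IL-1 beta, was the brightest member that the rule found, detected on all 8 arrays. Its levels were 10.60, 10.87, 10.17 and 11.32 in day 5 FSGS mice and 9.51, 8.56, 9.65 and 9.31 in uninjured mice. The groups did not overlap, replicate 3 was the lowest of the day 5 FSGS mice, and the difference was 1.49 (SE 0.30, 95% interval 0.80 to 2.17, adjusted p = 0.0183). Without day 5 FSGS replicate 3 its adjusted p was 0.00560, and with scaling to the median or the 75th percentile it also passed. Il18, which is matured by the same protease, had 5.51, 5.73, 5.13 and 6.44 in day 5 FSGS mice and 4.62, 4.55, 4.81 and 4.88 in uninjured mice. It was detected in day 5 FSGS replicate 4 alone, so its difference of 0.99 (SE 0.25, adjusted p = 0.0364) was read almost wholly below detection. It was 0.37 without background correction and 0.33 with the processed signal. Il33, an alarmin stored in the nucleus, was detected in day 5 FSGS replicates 2, 3 and 4 and in no uninjured mouse, with levels of 5.61, 5.77, 6.12 and 5.99 in day 5 FSGS mice and 4.75, 5.84, 5.19 and 4.77 in uninjured mice (adjusted p = 0.0849). In contrast to Il1b and Il18, its highest value was in replicate 3. Il1a, the other classic IL-1, was detected in day 5 FSGS replicate 4 only (6.35, against 4.71 to 5.28 in the other day 5 FSGS mice and 4.72 to 4.89 in uninjured mice). The epidermal members Il1f6, Il1f9 and Il1f10 were detected on no array.

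The inhibitors of the IL-1 family did not pass the test. Il1rn, the receptor antagonist, stood at 5.52, 5.51, 4.99 and 6.23 in day 5 FSGS mice and 4.84, 4.93, 5.01 and 4.99 in uninjured mice, averaged over 3 probes. The groups overlapped only through day 5 FSGS replicate 3 (difference 0.62, adjusted p = 0.112). Il18bp, which binds IL-18, and Il1f5, which blocks the IL-36 receptor, were below detection on every array. Il1r2, a decoy receptor that takes up IL-1 without signalling, had one of the largest differences and one of the widest spreads. It was at 7.30, 7.99, 6.41 and 9.17 in day 5 FSGS mice, against 4.68, 4.81, 6.75 and 6.29 in uninjured mice. Day 5 FSGS replicate 3 lay below uninjured replicate 3, and the difference was 2.08 (SE 0.67, 95% interval 0.55 to 3.62, adjusted p = 0.0733). It was 0.98 without background correction. The neutrophil marker S100a8 had 5.47, 6.73, 5.93 and 9.06 in day 5 FSGS mice and 5.27, 4.68, 6.65 and 6.85 in uninjured mice. Both genes were highest in day 5 FSGS replicate 4 and higher in uninjured replicates 3 and 4 than in 1 and 2. Among the other neutrophil markers, S100a9 and Cxcr2 did likewise. In contrast, Mmp9, Csf3r and Retnlg had their highest uninjured value in replicate 1 (6.54, 5.33 and 5.01). The part of neutrophils in Il1r2 was not tested.

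Signalling receptors of the family behaved in different ways. Il1r1, the signalling IL-1 receptor, was detected on all 8 arrays, at 5.89, 5.72, 6.60 and 6.76 in day 5 FSGS mice and 6.18, 5.94, 5.61 and 6.34 in uninjured mice. These values overlapped throughout, with a difference of 0.22 (95% interval -0.39 to 0.83, adjusted p = 0.628) that turned to -0.04 with 75th percentile scaling. Its accessory chain Il1rap was below detection on every array, with 4.88, 4.92, 4.88 and 4.89 in day 5 FSGS mice and 4.90, 4.92, 4.90 and 5.00 in uninjured mice. Its 6 probes differed by -0.42 to 0.18. Il18r1, the binding chain of the IL-18 receptor, was at 7.28, 7.75, 6.80 and 7.08 in day 5 FSGS mice and 4.86, 4.57, 5.73 and 6.93 in uninjured mice, detected in all 4 day 5 FSGS mice and in uninjured replicate 4. Uninjured replicate 4 lay above day 5 FSGS replicate 3, so the groups overlapped (difference 1.70, SE 0.49, adjusted p = 0.0517). Its accessory chain Il18rap did not overlap, with 5.47, 6.31, 5.09 and 5.66 in day 5 FSGS mice and 4.63, 4.65, 4.77 and 4.98 in uninjured mice (difference 0.88, adjusted p = 0.0451), but only day 5 FSGS replicate 2 was above detection. The Il18rap difference was 0.32 without background correction and 0.28 with the processed signal. The IL-36 receptor Il1rl2 and the neuronal Il1rapl2 were below detection on every array.

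**Figure D2:**
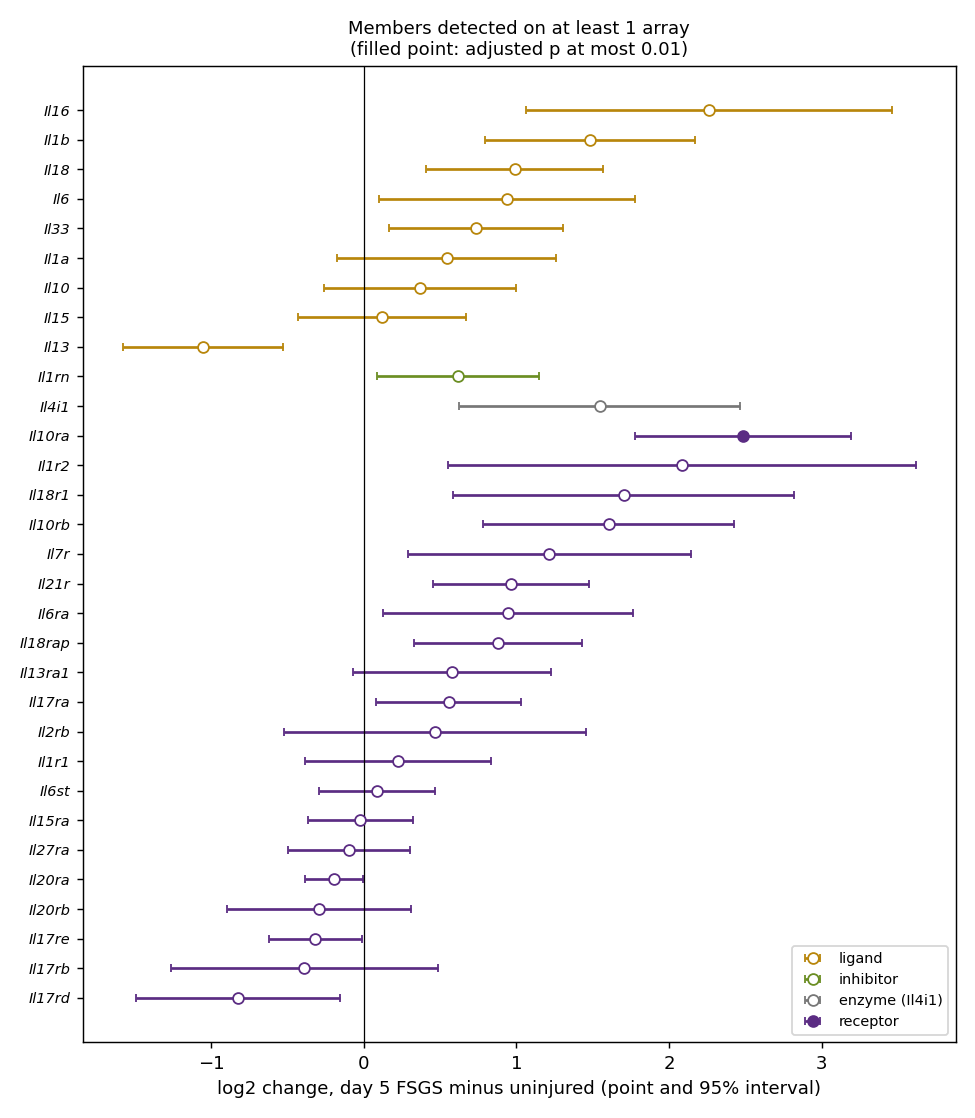
Log2 change (day 5 FSGS minus uninjured, x axis) with its 95% interval for each of the 31 members detected on at least 1 array, ligands at the top and receptors at the bottom. Only Il10ra has a filled point (adjusted p at most 0.01), Il13 has the lowest value at -1.05, and Il17rd is the lowest receptor at -0.83.

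Il16, a chemoattractant for CD4+ cells that T cells and other leukocytes make, had the largest difference of the ligands. It stood at 8.80, 9.29, 8.26 and 8.85 in day 5 FSGS mice, against 5.52, 5.59, 7.35 and 7.69 in uninjured mice. Uninjured replicates 1 and 2 were below detection and stood apart from the other uninjured mice, and this spread (SD 1.14) was larger than that of the day 5 FSGS mice (SD 0.42). The difference of 2.26 (SE 0.52, 95% interval 1.06 to 3.46, adjusted p = 0.0272) did not pass the threshold, although the groups did not overlap. It was 1.26 without background correction and 1.20 with the processed signal, and passed with 75th percentile scaling (adjusted p = 0.0036). Il34, a ligand of the macrophage colony-stimulating factor receptor that kidney tubules make after injury, was below detection on every array, with 5.41, 5.19, 5.09 and 5.03 in day 5 FSGS mice and 5.10, 5.37, 4.94 and 5.21 in uninjured mice.

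Among ligands of the common gamma chain and type 2 immunity, Il13 was the only member of all 72 that was lower at an adjusted p under 0.05. This cytokine of type 2 lymphocytes and mast cells stood at 5.21, 5.31, 5.34 and 5.21 in day 5 FSGS mice and 7.01, 6.09, 6.35 and 5.83 in uninjured mice. It was detected in uninjured replicates 3 and 4 and in no day 5 FSGS mouse, and the highest uninjured value, of replicate 1, did not reach the detection level of its array. Its measured difference was -1.05 (SE 0.23, 95% interval -1.58 to -0.53, adjusted p = 0.0223), which did not pass the threshold. It was -0.35 without background correction and -0.31 with the processed signal, and passed with median scaling (adjusted p = 0.0066) and 75th percentile scaling (adjusted p = 0.0057). Which cells carried the Il13 signal was not tested. Il15, which sustains NK and memory T cells, was detected on every array but uninjured replicate 1, with 6.21, 6.24, 6.40 and 6.54 in day 5 FSGS mice and 5.49, 6.27, 6.52 and 6.63 in uninjured mice. Its difference of 0.12 (95% interval -0.43 to 0.67) was -0.13 with 75th percentile scaling. Il3, Il4, Il5, Il7, Il9 and Il21 were detected on no array.

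Of the receptors for these ligands, 5 of 10 were detected on some array. Il21r, the chain specific to IL-21, was detected in all 4 day 5 FSGS mice and in no uninjured mouse. Its levels were 5.77, 6.37, 5.32 and 6.15 in day 5 FSGS mice and 4.78, 4.79, 5.00 and 5.18 in uninjured mice, a difference of 0.97 (SE 0.22, adjusted p = 0.0273) with no overlap. Of its 3 probes, 2 differed by 1.34 and 1.58, and the third was below detection on every array and differed by -0.03, so the average understates the other 2. The averaged difference was 0.34 without background correction and 0.30 with the processed signal. Il7r, shared by IL-7 and TSLP, had 5.93, 6.94, 5.63 and 6.98 in day 5 FSGS mice and 4.74, 4.83, 4.95 and 6.10 in uninjured mice (difference 1.22, SE 0.40, adjusted p = 0.0815). It was detected in all 4 day 5 FSGS mice and in uninjured replicate 4, which lay above day 5 FSGS replicates 1 and 3. Il2rb, of the IL-2 and IL-15 receptors, had 6.33, 6.97, 6.51 and 6.44 in day 5 FSGS mice and 7.46, 5.41, 6.09 and 5.42 in uninjured mice. The groups overlapped only through uninjured replicate 1 (difference 0.47, 95% interval -0.52 to 1.46, adjusted p = 0.525 from limma). Il13ra1, a chain of the receptor for IL-4 and IL-13, had 7.19 to 8.16 in day 5 FSGS mice and 6.47 to 7.52 in uninjured mice (difference 0.58, 95% interval -0.07 to 1.23). Il15ra, which presents IL-15, stood at 5.61, 5.35, 5.50 and 5.63 in day 5 FSGS mice and 5.22, 5.45, 5.64 and 5.88 in uninjured mice, with full overlap. Its brightest probe differed by -0.63 and the other 3 by 0.05 to 0.27, which cancelled in the average. Il2ra, Il3ra, Il5ra, Il9r and the decoy Il13ra2 were below detection on every array.

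In the IL-6 and IL-12 families the shared receptor chain and the IL-27 receptor were detected everywhere, with levels that overlapped between groups. Il6st, the gp130 chain through which IL-6, IL-11 and related cytokines signal, was detected on all 8 arrays at 8.10, 8.20, 8.42 and 8.46 in day 5 FSGS mice and 8.27, 8.56, 8.16 and 7.83 in uninjured mice. Its difference was 0.09, with a 95% interval of -0.29 to 0.47 (adjusted p = 0.770). Il27ra, which pairs with gp130 for IL-27, had 6.18 to 6.68 in day 5 FSGS mice and 6.14 to 6.79 in uninjured mice (difference -0.09, 95% interval -0.49 to 0.30). The specific chain for IL-6, Il6ra, was detected in day 5 FSGS replicates 1, 2 and 4 and in no uninjured mouse. It had 6.48, 7.05, 5.52 and 6.77 in day 5 FSGS mice and 6.16, 5.59, 5.24 and 5.04 in uninjured mice. The groups overlapped (measured difference 0.95, 95% interval 0.12 to 1.77, adjusted p = 0.116 from limma). Il6 was detected in the same 3 day 5 FSGS mice, with 5.67, 5.75, 4.75 and 6.78, against 4.67, 4.76, 4.99 and 4.78 in uninjured mice (difference 0.94, adjusted p = 0.124). In both genes day 5 FSGS replicate 3 lay within the uninjured values. Il11, Il12a, Il23a and Il27, and the receptors Il12rb1, Il12rb2, Il23r and Il31ra, were detected on no array.

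The IL-17 ligands (Il17a, Il17b, Il17c, Il17d, Il17f and Il25) were all below detection on every array, with means from 4.61 to 5.01. Their common receptor chain Il17ra was among the brightest members and detected on all 8 arrays. It stood at 9.88, 9.86, 9.41 and 10.27 in day 5 FSGS mice and 9.08, 9.02, 9.57 and 9.53 in uninjured mice, where day 5 FSGS replicate 3 lay inside the uninjured range (difference 0.56, SE 0.21, adjusted p = 0.111). The other 4 chains had lower means in day 5 FSGS CoRL. Il17rd, which is also known to restrain FGF signalling, was at 5.75, 5.27, 6.03 and 6.36 in day 5 FSGS mice and 6.47, 7.39, 6.35 and 6.50 in uninjured mice (difference -0.83, SE 0.29, adjusted p = 0.0957). Uninjured replicate 2 stood highest, and the groups met at 6.36 and 6.35. Il17rc, the partner of Il17ra, did not overlap between groups (-0.38, adjusted p = 0.0796) but was below detection on every array. Il17rb, a chain of the IL-25 receptor, was at 5.16 to 5.95 in day 5 FSGS mice and 4.83 to 6.50 in uninjured mice, and Il17re was detected in uninjured replicate 4 alone.

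Il4i1 carries the name of an interleukin gene but encodes a secreted oxidase of amino acids that myeloid and B cells make. It was detected in day 5 FSGS replicates 1, 2 and 4 and in no uninjured mouse, with 6.79, 7.01, 5.30 and 7.06 in day 5 FSGS mice and 4.64, 4.68, 5.16 and 5.51 in uninjured mice. Day 5 FSGS replicate 3 lay below uninjured replicate 4. The measured difference of Il4i1 was 1.55 (SE 0.40, adjusted p = 0.0387), which did not pass the threshold. Without day 5 FSGS replicate 3 the adjusted p was 0.00119. The difference was 0.57 without background correction.

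Detection varied within the groups as well as between them. Of 72 members, 41 (56.9%) were detected on no array, beside 42.4% of all genes, and 5 (6.94%) on all 8, beside 24.7%. The 5 were Il1b, Il17ra, Il6st, Il1r1 and Il27ra. Members detected numbered 23, 23, 18 and 25 in day 5 FSGS replicates 1 to 4 and 8, 9, 17 and 20 in uninjured replicates 1 to 4. All genes detected numbered 8125, 7853, 7813 and 8070 in day 5 FSGS mice, against 4424, 6055, 7108 and 8301 in uninjured mice. Uninjured replicate 4, with the most genes of all arrays, thus had fewer members detected than 3 of the day 5 FSGS mice and more than replicate 3. More day 5 FSGS than uninjured arrays detected 20 members (27.8%, beside 24.6% of all genes), and fewer did so for 4 members (5.56%, beside 5.52%). Ligands detected numbered 4 to 8 in day 5 FSGS mice and 1 to 4 in uninjured mice, and receptors 14 to 16 in day 5 FSGS mice and 7 to 15 in uninjured mice. The members detected only in day 5 FSGS CoRL were Il18, Il1a, Il33, Il10, Il6, Il21r, Il18rap, Il6ra and Il4i1. Those detected only in uninjured CoRL were Il13, Il20ra, Il20rb and Il17re. These are 9 and 4 of 72 members, beside 1018 and 485 of all 16593 genes. The lowest detected level was 7.34 and 6.51 on uninjured replicates 1 and 2. Il33 at 5.84 was thus not detected in uninjured replicate 2, but was detected at 5.77 in day 5 FSGS replicate 2.

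**Figure D3:**
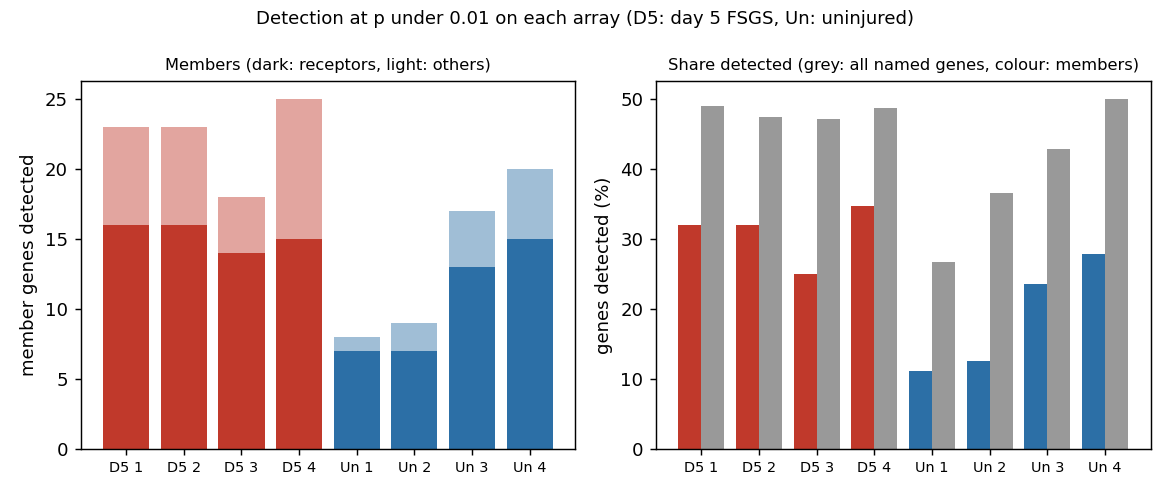
Left, members detected on each array (y axis, number of genes, receptors dark and others light), and right, the share of members (colour) and of all named genes (grey) detected in percent, day 5 FSGS arrays left of uninjured arrays. Uninjured replicates 1 and 2 have 8 and 9 members and also the fewest genes overall.

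The calls moved with single mice. Without day 5 FSGS replicate 3, whose marker sums are given above, 5 members rose (Il10ra, Il1b, Il21r, Il18 and Il4i1), and 20 were higher at an unadjusted p under 0.05. With any other day 5 FSGS mouse left out limma called 0 members (14 to 15 higher and 2 to 3 lower unadjusted). Leaving out uninjured replicate 2 or 3 kept the call of Il10ra alone, and leaving out uninjured replicate 1 or 4 left 0 members called (15 to 16 higher and 3 to 6 lower unadjusted). Over all genes the calls moved alike, with 1207 higher and 724 lower without day 5 FSGS replicate 3 and at most 37 and 3 without any other mouse.

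**Figure D4:**
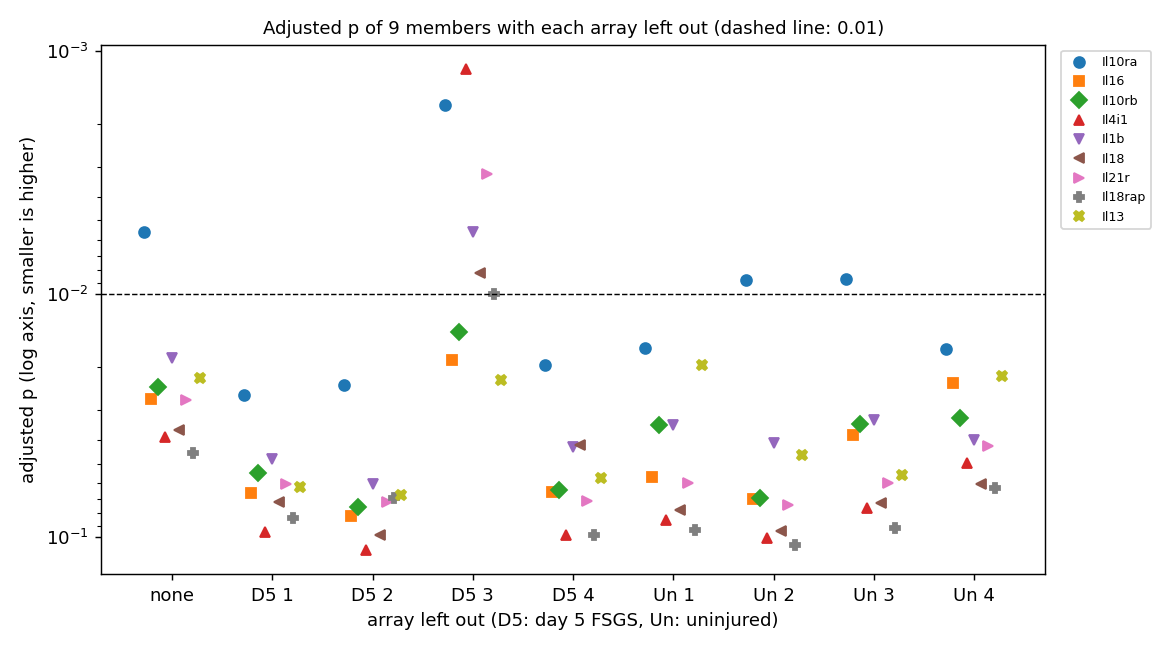
Adjusted p (log axis, smaller values at the top) of 9 members with all arrays and with each array left out in turn. Only Il10ra lies above the dashed line at 0.01 with all arrays, and 5 members do without day 5 FSGS replicate 3.

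Genes outside the naming rule that work with interleukins were read from 4 lists, in which 5 of 51 measured rose (1.91% of all genes did), 0 fell and 46 did not pass. At an adjusted p under 0.05 from limma 17 were higher, beside 8.52% of all genes, and 0 lower (1 at an unadjusted p under 0.05). Their median log2 change was 0.57, against -0.03 for all genes. The lists were written with earlier results of these data known, so no conclusion is drawn from their shares or median. Of 15 other cytokines and receptor chains, 2 rose. Ebi3, the shared subunit of IL-27 and IL-35, stood at 7.76, 7.99, 7.16 and 7.89 in day 5 FSGS mice and 4.75, 5.22, 5.96 and 5.82 in uninjured mice, a log2 change of 2.26 (SE 0.29, adjusted p = 0.00609). Only 1 of the 4 uninjured arrays detected Ebi3, and the log2 change was 0.97 without background correction and 0.89 with the processed signal, each still called. Its partner Il27 was below detection on every array. Csf2ra, the GM-CSF receptor, rose 3.32-fold (adjusted p = 0.00781). Its signalling partner Csf2rb, which is shared with IL-3 and IL-5, had 6.62, 7.66, 5.38 and 7.49 in day 5 FSGS mice and 5.42, 4.96, 5.15 and 5.11 in uninjured mice (adjusted p = 0.0488).

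Of 16 adaptors, kinases and STATs, 2 rose (Stat3 and Tyk2) and 14 did not pass. Jak1 was among those that did not (difference 0.94, adjusted p = 0.0904 from limma). Stat3 stood at 9.05, 9.09, 8.52 and 9.21 in day 5 FSGS mice and 7.96, 7.76, 7.76 and 8.02 in uninjured mice (2.13-fold higher, adjusted p = 0.00753). The kinase Tyk2, which binds Il10rb, rose by a log2 change of 0.87 (adjusted p = 0.00560). It was detected on 1 of the 4 uninjured arrays, and its log2 change was 0.37 without background correction, 2.04 by its brightest probe and 0.44 with 75th percentile scaling, which ended the call (adjusted p = 0.118). Of 12 inhibitors of signalling none was called (limma, with 3 higher at an unadjusted p under 0.05 and 1 at an adjusted p under 0.05, Ptpn6, with a difference of 2.08 and adjusted p = 0.0133), and the brightest, Pias1, differed by 0.57 (adjusted p = 0.0722). Of 8 genes of processing and shedding, 1 rose, and all 8 had higher means (median 1.61). Gsdmd, whose pore releases IL-1 beta, was at least 1.42-fold higher (measured difference 1.75, adjusted p = 0.00580). Casp1, the protease that matures IL-1 beta and IL-18, missed the threshold with 8.85, 9.55, 8.53 and 9.70 in day 5 FSGS mice and 6.50, 5.77, 7.30 and 7.28 in uninjured mice (difference 2.45, SE 0.40, adjusted p = 0.0101). Without day 5 FSGS replicate 3, 18 of the 51 were called, and without any other mouse 0. Ebi3, Csf2ra and 7 of the 8 genes of processing and shedding had their lowest day 5 FSGS value in replicate 3.

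**Figure D5:**
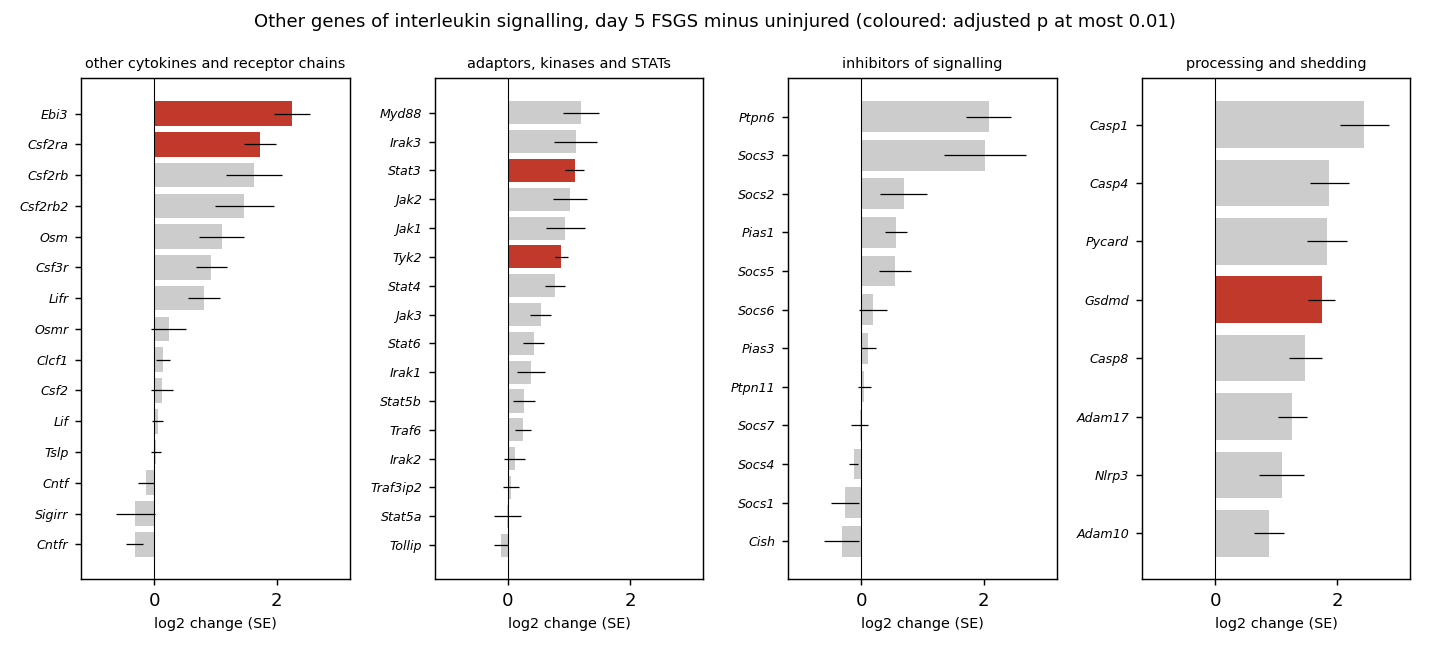
Log2 change (day 5 FSGS minus uninjured, x axis) with its SE for 51 genes of interleukin signalling in 4 lists, coloured where the adjusted p was at most 0.01. The coloured bars are Ebi3, Csf2ra, Stat3, Tyk2 and Gsdmd, and all 8 genes of processing and shedding lie above 0.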

How the data were processed

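CoRL of 8 mice, 4 per group, were measured on 8 arrays. The authors deposited an intensity for each probe, linear and not normalized, read on an iScan from amplified cDNA, with a detection p-value that the authors' table gives per probe and array. The software behind them is not given in the sources used here. A second deposited table holds a processed signal, which the authors describe as variance stabilized and quantile normalized with lumi. The log2 of that signal served as an alternative. Gene names are those of the platform, for 23978 probes, and 1719 probes are unnamed here. All 72 members matched RefSeq by gene number.

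Intensities were corrected for background by normexp, using the detection p-values (limma 3.58.1 in R 4.3.3, offset 16), then quantile normalized and taken to log2 with no filter on dim probes. After averaging over probes, a linear model in limma with 1 term, the group, was fitted and moderated (lmFit, eBayes), with Benjamini-Hochberg adjustment over all 16593 genes. It was also run on simulated data, drawn as independent normal values without differences between arrays. That check cannot cover arrays of unequal quality, and no conclusion is drawn from it. Precision is limited by the 4 arrays per group. A fold given as "at least" compares the brighter group with a floor where no array of the dimmer group detected the gene, each array counting as the higher of its own value and its lowest detected level. Such a fold does not count the spread between mice. The labels number the mice 1 to 4 in each group, and deviations of same-numbered arrays correlated at -0.09 to 0.11, so the numbers were not taken as pairs. No arrays held identical values.

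Members and lists were chosen with earlier results of these data known. Values on every array were given for called members, those with an adjusted p under 0.05 and no overlap, partners of a called gene, the 5 brightest, and those whose probes moved in opposite directions by over 0.5. Il1r2, Il18r1, Il4i1, Il7r, Il33, Il6, Il6ra, Il10, Il1rn, Il15, Il1r1, Il17rd, Il34, Csf2rb, Casp1, Ptpn6 and S100a8 were added after their values were seen. Alternatives changed the background, offset, scaling, probe summary, variance model, test, threshold or samples, and the processed table with the Bayesian test of the methods was added after seeing the data. Figures were drawn with matplotlib 3.10.9.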

Additional observations from a re-analysis of the deposited data

Results flagged for a closer look

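Among 58 groups of 4 mice, for 29 members, 6 held 1 mouse far from the other 3 by Dixon's criterion. The 29 were the members followed singly, some of them added after their values were seen, and the other members were not screened. The count therefore cannot be set against the about 1 in 20 groups that chance gives. Il10 was low in day 5 FSGS replicate 3 (4.91, nearest 5.68) and high in uninjured replicate 1 (5.85, nearest 4.93). Il4i1 was low in day 5 FSGS replicate 3 (5.30, nearest 6.79). Il7r was high in uninjured replicate 4 (6.10, nearest 4.95). Il27ra was low (6.14, nearest 6.69) and Il17rd high (7.39, nearest 6.50) in uninjured replicate 2.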

How the results depend on the processing

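Calls depended on the variance model and on single mice. Members called were 1 higher and 0 lower, genes 317 higher and 66 lower, and genes of the pathway lists 5. Median scaling gave 2 and 1 members, 719 and 38 genes and 11 pathway genes, and 75th percentile scaling 4 and 1 members, 579 and 446 genes and 9 pathway genes. No background correction gave 126 genes lower, the processed signal 116, and testing each probe alone 119. An offset of 50 gave 154 genes higher and 3 pathway genes. Testing only probes detected on all arrays of a group gave 5 of 16 members higher, 784 (11.3%) and 216 of 6964 genes and 14 pathway genes. All 16 members passed this filter in day 5 FSGS mice and only 5 of them also in uninjured mice. The filter thus favours members that are higher in day 5 FSGS mice, and no conclusion is drawn from the 5. An intensity trend with robust variances gave 2 members higher, 554 and 107 genes and 11 pathway genes, and array weights 3 and 1 members, 973 and 481 genes and 13 pathway genes. The Bayesian test of the methods gave 11 and 1 members, 993 and 645 genes and 17 pathway genes, and on the processed table, an alternative chosen after seeing the data, 10 and 0 members, 1002 and 707 genes and 18 pathway genes. A threshold of 0.05 gave 8 and 1 members, 1413 and 964 genes and 17 pathway genes. The unequal-variance test called 0 members, 0 genes and 0 pathway genes (2023 and 1799 genes at an unadjusted p under 0.05). With the replicate block, 0 members, 0 genes and 0 pathway genes were called (18 and 5 members and 2446 and 2433 genes unadjusted), and the adjusted p of Il10ra was 0.0331.

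Leaving out 1 mouse gave 0 to 5 members higher and 0 to 0 lower, 0 to 1207 genes higher and 0 to 724 lower, and 0 to 18 pathway genes, the highest each time without day 5 FSGS replicate 3. Without both that mouse and uninjured replicate 1 there were 6 and 1 members, 1060 and 592 genes and 17 pathway genes. Members detected on all arrays of a group numbered 16, and 20 at a detection p under 0.05. Over all 72 members, 17 turned from higher to lower with median scaling and 21 with 75th percentile scaling, the largest being Il17a (0.23) and Il1rl2 (0.43), both below detection on every array. Of these, 0 and 2 were detected on any array. Other settings turned at most 6 members. Among the members followed singly, those that turned were Il6st without uninjured replicate 4 (-0.035), Il15ra without day 5 FSGS replicate 2 (0.03) or uninjured replicate 3 (0.01) or 4 (0.089), Il1rap by its brightest probe (0.10), Il27ra without day 5 FSGS replicate 4 (0.010) and Il1r1 with 75th percentile scaling (-0.037). Il15 turned with 75th percentile scaling (-0.13), array weights (-0.091), without uninjured replicate 1 (-0.13) and without both mice named above (-0.15). With 1 mouse left out, the values ran from -0.035 to 0.21 for Il6st, from -0.13 to 0.089 for Il15ra, from -0.13 to 0.25 for Il15 and from -0.24 to 0.010 for Il27ra. The cause was not tested. Dim members are limited by the detection level, which was highest on uninjured replicate 1.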

Other observations

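Several members below detection on every array had their highest level on uninjured replicate 1, the array with the fewest probes detected. Il5 stood at 6.56 there, against 4.82 to 4.88 in day 5 FSGS mice and 4.76 to 5.14 in the other uninjured mice. Il22 stood at 6.36, against 4.60 to 4.75 in day 5 FSGS mice and 4.71 to 4.81 in the other uninjured mice. Il27 was at 6.60, against 4.70 to 5.22 in day 5 FSGS mice and 4.67 to 5.02 in the other uninjured mice. Il22ra1 was at 6.98, against 4.92 to 5.33 in day 5 FSGS mice and 4.98 to 6.10 in the other uninjured mice.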
